A study of Homo sapiens with 9 samples.

Results

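The transcripts of 46 DNA repair and checkpoint genes were followed in 143B cells, a human osteosarcoma line, before and after exposure to XD23, a compound that the labels give by its code name alone. The genes were taken by name from the deposited table of 36810 genes. They cover homologous recombination (11 genes), processing of broken ends (6), the Fanconi pathway (10), mismatch repair (4), checkpoint kinases and their partners (6), end joining (5) and excision repair (4). RNA was sequenced from 9 libraries in 3 groups of 3: the control, taken at 0 h, and cells that received 0.5 µM XD23 for 24 h or for 48 h. Neither a vehicle nor untreated cells kept for 24 h or 48 h are named, so time in culture and the compound cannot be told apart. Whether libraries of a group stem from separate cultures is not stated, and p-values then measure only the spread between these libraries, which may be technical. The line itself carries VIM at 296.9 to 389.4 FPKM, SPARC at 27.6 to 43.3 FPKM and RUNX2 at 4.06 to 6.61 FPKM, but the bone matrix collagen COL1A1 at no more than 0.703 FPKM and the osteoblast phosphatase ALPL at no more than 0.171 FPKM. Among 8 markers of blood, endothelium, epithelium and liver found in the table, EPCAM alone exceeded 1 FPKM, and PTPRC, which marks blood cells, was listed at 0 in 6 libraries.

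Cells mend broken DNA either by copying an intact sister molecule, which is homologous recombination and works after replication, or by joining the ends directly, which works throughout the cycle. The Fanconi proteins unhook crosslinks between strands, mismatch repair corrects copying errors behind the fork, excision repair removes damaged bases or stretches of a strand, and the checkpoint kinases hold the cycle while this goes on. Many genes of recombination and mismatch repair are transcribed most strongly around S phase under E2F factors, whereas the Ku proteins of end joining are abundant at all times in human cells.

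For 41 of the 46 genes a promoter window was at hand, from 250 bases before to 50 bases after the start of the gene (RefSeq, GRCh38.p14). The words TTTGGCGC, TTTCCCGC, TTTGCCGC and TTTCGCGC, the forms of the E2F consensus, were searched on both strands. At least 1 of them stood in 11 of the 41 windows (26.8%), against 908 of 27305 windows of the whole table (3.33%). Of the genes that fell after 48 h with XD23, 7 of 22 windows held a match (31.8%), and of those that were not called, 4 of 17 (23.5%). The box CCAAT stood in 20 of 41 windows (48.8%; 35.7% of all windows) and TTTGAA, the core of the CHR element of mitotic genes, in 3 of 41 (7.32%; 15.4% of all windows). These are matches of letters, which show neither binding nor a cause. Windows are shown 5′ to 3′ on the strand of the gene, with the E2F word in capitals. They are those of the 2 genes that fell most among those with a match (MSH6 and XRCC2) and of the gene that rose (CHEK2). The window of UNG, which fell most in all by log2 fold change on log2(FPKM + 1), is also shown. In MSH6 (chr2:47782895-47783194, plus strand) the word begins 4 bases after the start, counted from 1 at the first transcribed base. In XRCC2 (chr7:152676092-152676391, minus strand) its reverse complement begins 22 bases after the start. UNG (chr12:109097347-109097646, plus strand) and CHEK2 (chr22:28741771-28742070, minus strand) hold none of the 4 words.
MSH6: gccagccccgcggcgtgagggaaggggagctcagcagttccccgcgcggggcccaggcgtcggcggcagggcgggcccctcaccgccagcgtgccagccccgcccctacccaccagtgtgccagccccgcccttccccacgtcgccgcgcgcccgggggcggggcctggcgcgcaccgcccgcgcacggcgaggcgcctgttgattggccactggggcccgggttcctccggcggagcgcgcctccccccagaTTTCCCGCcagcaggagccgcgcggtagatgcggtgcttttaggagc
XRCC2: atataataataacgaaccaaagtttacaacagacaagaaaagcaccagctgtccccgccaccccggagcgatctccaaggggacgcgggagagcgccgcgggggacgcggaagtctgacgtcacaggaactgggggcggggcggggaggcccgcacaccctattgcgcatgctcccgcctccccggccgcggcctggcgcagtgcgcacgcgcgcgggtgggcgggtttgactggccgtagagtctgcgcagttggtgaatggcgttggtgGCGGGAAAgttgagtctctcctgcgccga
UNG: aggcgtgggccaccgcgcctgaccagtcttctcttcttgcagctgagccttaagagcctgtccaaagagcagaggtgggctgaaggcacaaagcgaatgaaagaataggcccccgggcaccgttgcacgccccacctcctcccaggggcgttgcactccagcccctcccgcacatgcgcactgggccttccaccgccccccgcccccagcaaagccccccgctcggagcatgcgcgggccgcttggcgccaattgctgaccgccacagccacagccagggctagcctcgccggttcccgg
CHEK2: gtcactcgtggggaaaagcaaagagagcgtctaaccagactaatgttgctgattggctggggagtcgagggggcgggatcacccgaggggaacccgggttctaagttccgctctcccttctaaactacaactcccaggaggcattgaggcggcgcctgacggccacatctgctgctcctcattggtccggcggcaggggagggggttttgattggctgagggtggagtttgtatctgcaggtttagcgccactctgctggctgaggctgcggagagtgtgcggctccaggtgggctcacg

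Levels are FPKM, fragments scaled to the length of the gene and the depth of the library, as the authors deposited them. They allow genes to be compared per length, with some reserve. The 2 Ku genes led in control, with XRCC6 at 155.4 ± 5.93 and XRCC5 at 132.6 ± 2.09 FPKM (SD, n = 3), followed by PRKDC, the kinase they recruit, at 51.3 ± 3.40 FPKM. The lowest were RAD50 at 0.483 ± 0.105, BRIP1 at 1.26 ± 0.0418 and RAD51D at 1.42 ± 0.109 FPKM. The length the authors divided by, recovered from the values, exceeded the exon length in GENCODE release 29 by more than 1.5 times in 6 genes (ATM, ATR, BRIP1, FANCI, PARP1 and PMS2), which lowers their FPKM. For BRIP1 it was 19639 bases against 7991 in GENCODE. RAD50, the ATPase of the MRE11 complex, had 0.199 to 0.601 FPKM on 46 to 127 fragments per library, while its partners MRE11 and NBN had at least 1681 and 2492 fragments. Of the exon bases of RAD50, 79.7% also lie in exons of other genes (TH2LCRR on the opposite strand and AC116366.3 on the same strand), as do 76.7% of those of XRCC3 (KLC1) and 59.1% of those of RAD54B (FSBP). The sources used here do not give how fragments on shared bases were counted or whether strand was used, so the levels of these 3 genes are uncertain.

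**Figure D1:**
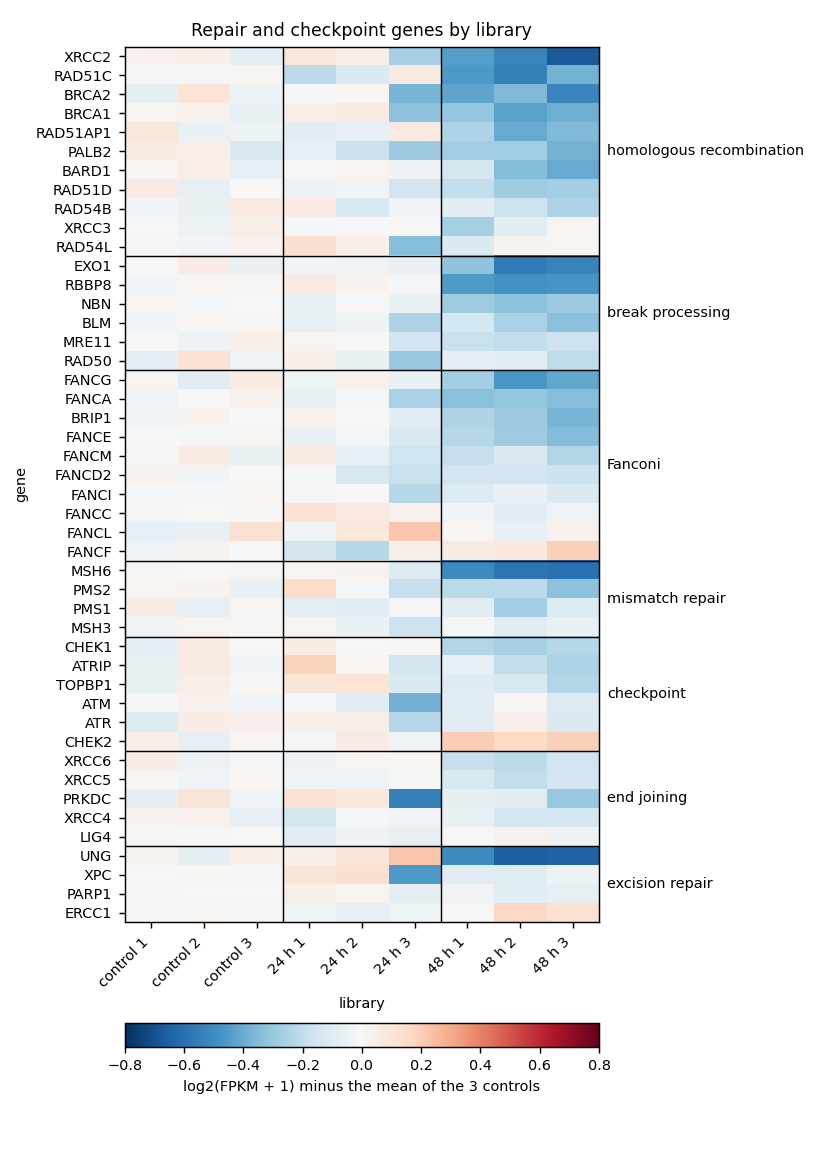
Level of each of the 46 genes (rows, by repair branch) in each of the 9 libraries (columns), as log2(FPKM + 1) minus the mean of the 3 controls. Blue, lower values fill most of the 48 h columns in the recombination and break-processing rows, but not in RAD54L and XRCC3. The checkpoint, end joining and excision rows are paler apart from CHEK1, UNG and single libraries.

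After 48 h with XD23, 24 of the 45 genes that could be tested fell and 1 rose, while 20 were not called. A gene was tested if it had at least 1 FPKM in at least 3 libraries, which left out RAD50, and it was called at an adjusted p under 0.05 (limma on log2(FPKM + 1), Benjamini-Hochberg over all 13657 genes tested). Among all genes tested 15.2% were called lower and 13.3% higher, against 53.3% and 2.22% of the repair genes. The median log2 fold change was -0.18 over the 45 genes and -0.02 over all genes tested. The highest 48 h library lay under the lowest control for 34 of the 45 repair genes and for 27.7% of all genes tested. The falls were modest: 3 genes (UNG, MSH6 and XRCC2) moved by 0.5 or more on log2(FPKM + 1). That number depends on the added 1 FPKM. With 0.1 FPKM added instead, RAD51C (-0.60), BRCA2 (-0.55) and EXO1 (-0.53), for instance, also moved by more than 0.5. Median-of-ratios scaling, which puts the median of all genes at 0.00, gave 22 lower and 1 higher, while over all genes it turned the split of 2080 lower and 1811 higher into 1617 lower and 2155 higher. With no filter on low values, 17 repair genes were lower, and BRCA1, BRCA2, RAD51D, MRE11, BLM, FANCD2 and PMS2 lost their call. That setting tested all 36810 genes, of which 4.12% were called lower. The log2 fold changes were not altered by it, for instance -0.378 in BRCA1 and -0.433 in BRCA2.

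The branches were not alike in how many of their genes fell. In break processing 5 of 5 tested genes fell, in homologous recombination 8 of 11, in the Fanconi pathway 5 of 10 and in mismatch repair 2 of 4. In end joining it was 2 of 5, in excision repair 1 of 4 and in the checkpoint group 1 of 6. Among all genes tested 15.2% were called lower, and the checkpoint count is near that share. The checkpoint gene CHEK2 was the single one that rose. The median log2 fold change was -0.31 in homologous recombination and -0.30 in break processing, and nearer to 0 in mismatch repair (-0.20), the Fanconi pathway (-0.17), end joining (-0.15), the checkpoint group (-0.10) and excision repair (-0.07). In single libraries the median for homologous recombination stood at -0.263, -0.347 and -0.378 at 48 h, against 0.013, -0.012 and -0.039 in control. Excision repair stood at -0.057, -0.092 and -0.053 at 48 h, against -0.004, 0.010 and -0.003 in control. The order of the smaller medians depended on the processing. End joining moved to -0.102 without control replicate 2 and to -0.1 without 48 h replicate 3, and excision repair to -0.035 with median-of-ratios scaling. With the filter at 5 FPKM, on fewer genes, the checkpoint group stood at -0.197, below the Fanconi pathway at -0.126. The difference between branches was not tested, because their genes are few and are not replicates. The order was also not that of the further lists of the same pathways given below. There, mismatch repair (-0.33) and checkpoint and damage signalling (-0.25) had lower medians than recombination (-0.20).

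**Figure D2:**
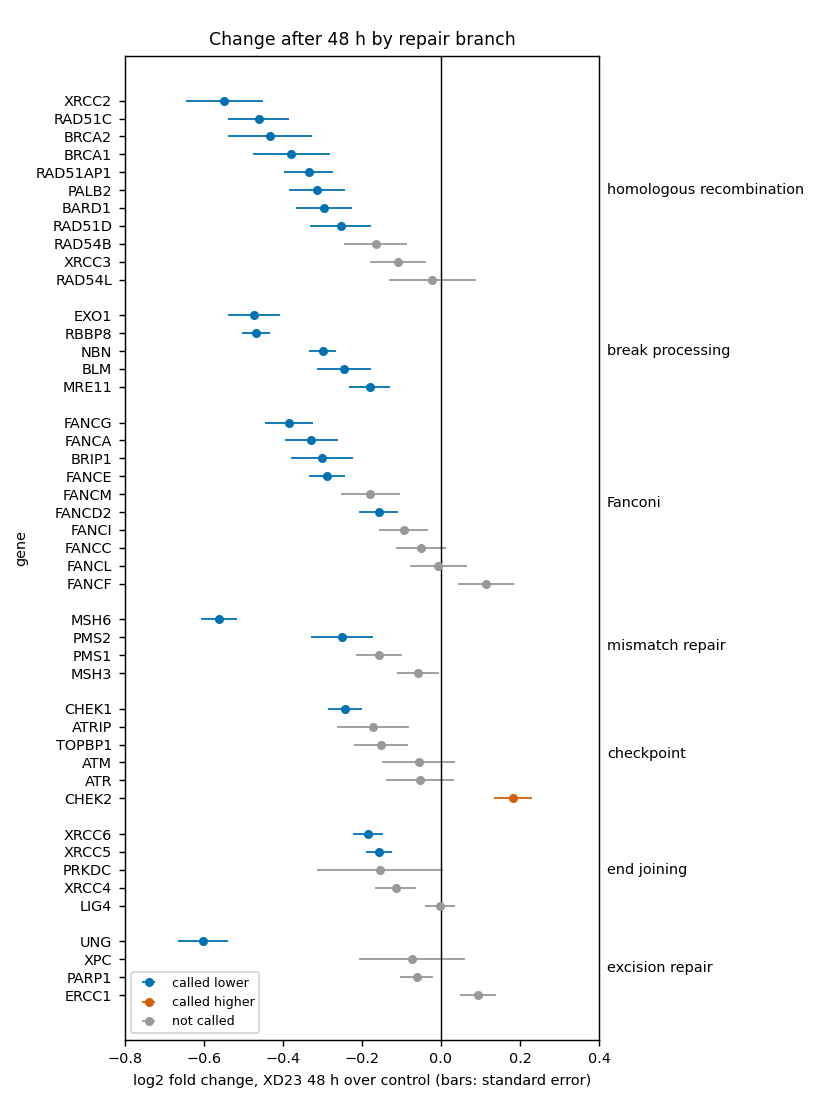
Log2 fold change of the 45 tested genes after 48 h with XD23 over control, on log2(FPKM + 1), with standard errors as bars and genes ordered within their branch. Genes called lower (blue) crowd the 2 upper branches, CHEK2 is the only gene called higher (orange), and the points of the last 3 branches lie mostly within 0.2 of 0, apart from UNG and CHEK1.

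Homologous recombination was led downward by XRCC2, RAD51C and BRCA2. XRCC2, which with RAD51C and RAD51D belongs to a complex that acts early in strand exchange, had 7.07, 7.08 and 6.48 FPKM in control, 7.37, 7.11 and 5.56 FPKM at 24 h and 4.79, 4.46 and 3.93 FPKM at 48 h. The 48 h values lay below all others, and the third 24 h library was the lowest of the other 6. The mean of XRCC2 fell to 4.40 ± 0.431 FPKM at 48 h, against 6.88 ± 0.346 FPKM in control (SD, n = 3), a log2 fold change of -0.55 ± 0.10 (SE; adjusted p = 0.00379). RAD51C had 3.48, 3.48 and 3.59 FPKM in control, 2.91, 3.17 and 3.75 FPKM at 24 h and 2.28, 2.10 and 2.48 FPKM at 48 h, again with no overlap between 48 h and the rest. Its log2 fold change at 48 h was -0.46 ± 0.08 (adjusted p = 0.00295). BRCA2, a large protein that acts on single-stranded DNA at the break, had 3.78, 4.41 and 3.89 FPKM in control, 3.99, 4.07 and 2.87 FPKM at 24 h and 2.74, 2.93 and 2.49 FPKM at 48 h. Here the third 24 h library fell within the range of the 48 h libraries. The call of the BRCA2 change of -0.43 ± 0.11 (adjusted p = 0.0162) depended on control replicate 2 and on 48 h replicate 3, since leaving out either ended it (adjusted p 0.0568 to 0.0587). With 24 h replicate 3 left out of the shared fit the adjusted p was 0.00162.

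The other called genes of this branch, partners of BRCA2 among them, had smaller changes on log2(FPKM + 1). Differences between genes were not tested. BRCA1 averaged 6.30 ± 0.315 FPKM at 48 h and 8.49 ± 0.341 FPKM in control (log2 fold change -0.38 ± 0.10, adjusted p = 0.0201). BARD1, which forms a ubiquitin ligase with BRCA1, moved by -0.30 ± 0.07 and PALB2, which bridges BRCA1 and BRCA2, by -0.31 ± 0.07. RAD51AP1, which promotes strand invasion, stood at 12.1 ± 0.724 FPKM at 48 h and 15.5 ± 0.921 FPKM in control (-0.33 ± 0.06, adjusted p = 0.00498). RAD51D moved by -0.25 ± 0.08 on 228 to 352 fragments. Its ratio of the 48 h mean to the control mean was 0.725, against 0.742 for BRCA1, and the added 1 FPKM holds its log2 fold change down. The BRCA1 call was lost if any of 4 libraries was dropped, namely controls 1 and 2 and the second and the third library at 48 h (adjusted p 0.0577 to 0.0704). BARD1 lost its call if control 2 or the second 48 h library was dropped (0.0519 to 0.0545). The RAD51D call ended without any 1 library except 24 h replicate 3 (0.0530 to 0.127). The 3 genes not called were RAD54B (-0.17 ± 0.08), XRCC3 (-0.11 ± 0.07) and RAD54L (-0.02 ± 0.11). RAD54L, a motor that remodels DNA during strand exchange, had 4.18, 4.13 and 4.33 FPKM in control and 3.81, 4.32 and 4.29 FPKM at 48 h, in overlapping ranges.

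Break processing fell in every tested gene. EXO1, a nuclease that resects ends and also serves mismatch repair, had 9.08, 9.58 and 8.72 FPKM in control, 8.95, 8.87 and 8.71 FPKM at 24 h and 7.09, 5.85 and 6.00 FPKM at 48 h. RBBP8 (CtIP), which starts resection together with the MRE11 complex, had 17.4, 17.9 and 17.9 FPKM in control, 18.7, 18.1 and 17.6 FPKM at 24 h and 12.7, 12.4 and 12.5 FPKM at 48 h. For both genes the 48 h libraries lay below all others, and control and 24 h libraries overlapped. The log2 fold changes at 48 h were -0.47 ± 0.07 for EXO1 (adjusted p = 0.00112) and -0.47 ± 0.04 for RBBP8 (adjusted p = 7.9e-05). NBN, the damage-sensing subunit of the MRE11 complex, had 24.8, 24.3 and 24.6 FPKM in control, 23.5, 24.5 and 23.6 FPKM at 24 h and 20.0, 19.4 and 19.9 FPKM at 48 h (-0.30 ± 0.03, adjusted p = 0.000413). The helicase gene BLM (-0.24 ± 0.07, adjusted p = 0.0277) and the nuclease gene MRE11 (-0.18 ± 0.05, adjusted p = 0.0298) fell less. Dropping any control, or the second or the third 48 h library, ended the BLM call (adjusted p 0.0632 to 0.0902). Dropping any 48 h library, or control 1 or 3, ended that of MRE11 (0.0651 to 0.102). With 24 h replicate 3 left out of the shared fit the adjusted p was 0.00867 for BLM and 0.00422 for MRE11. RAD50 had 0.403, 0.388 and 0.284 FPKM at 48 h and 0.403, 0.601 and 0.444 FPKM in control, under the filter of 1 FPKM. With no filter it was not called (-0.12 ± 0.10, adjusted p = 0.581).

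In the Fanconi pathway the genes that fell were FANCG, FANCA, BRIP1, FANCE and FANCD2. FANCG, a subunit of the core ubiquitin ligase, had 9.83, 9.03 and 10.1 FPKM in control, 9.41, 9.89 and 9.27 FPKM at 24 h and 7.83, 6.72 and 6.97 FPKM at 48 h. Its log2 fold change was -0.38 ± 0.06 (adjusted p = 0.0023). FANCA, another core subunit, had 3.55, 3.63 and 3.72 FPKM in control, 3.45, 3.59 and 2.86 FPKM at 24 h and 2.68, 2.74 and 2.65 FPKM at 48 h (-0.33 ± 0.07, adjusted p = 0.00722). The helicase gene BRIP1 (FANCJ) had 1.22, 1.30 and 1.25 FPKM in control, 1.30, 1.26 and 1.12 FPKM at 24 h and 0.914, 0.843 and 0.747 FPKM at 48 h. In all 3 genes the 48 h libraries were the lowest of the 9, and in FANCA and BRIP1 the third 24 h library came next. The ratio of BRIP1 means was 0.663, close to that of MSH6 (0.660), while its log2 fold change of -0.30 ± 0.08 (adjusted p = 0.0213) is held down by the added 1 FPKM. FANCE, which links the core to its substrate, moved by -0.29 ± 0.05, and FANCD2, that substrate, by -0.16 ± 0.05 (adjusted p = 0.0438). FANCD2 has pseudogene copies and is uncertain. FANCI, the partner of FANCD2, stood at 9.24 ± 0.245 FPKM at 48 h and 9.92 ± 0.116 FPKM in control, and was not called (-0.09 ± 0.06, adjusted p = 0.295). FANCL, the catalytic subunit of the ligase, stood at 15.3 ± 0.527 FPKM at 48 h and 15.4 ± 1.23 FPKM in control (-0.01 ± 0.07). FANCM (-0.18 ± 0.07), FANCC (-0.05 ± 0.06) and FANCF (0.11 ± 0.07) were not called. BRIP1 lost its call if any control, or the second or the third 48 h library, was dropped (adjusted p 0.0538 to 0.0679). FANCD2 lost it if any control, any 48 h library or the second 24 h library was dropped (0.0617 to 0.132), and FANCI gained one (0.0478) when the third 24 h library was. Scaling by the median of ratios also ended the FANCD2 call.

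Mismatch repair was split between its genes. MSH6, the subunit that recognises single mispaired bases, had 18.2, 18.3 and 18.4 FPKM in control, 18.5, 18.7 and 16.9 FPKM at 24 h and 12.6, 11.9 and 11.8 FPKM at 48 h. Its 48 h libraries lay well below the other 6. The mean fell to 12.1 ± 0.441 FPKM at 48 h, against 18.3 ± 0.131 FPKM in control (log2 fold change -0.56 ± 0.05, adjusted p = 0.000104). MSH3, which takes the place of MSH6 in recognising longer loops, had 9.78, 9.17 and 9.45 FPKM at 48 h and 9.66, 10.1 and 9.98 FPKM in control. These ranges overlapped, and MSH3 was not called (-0.06 ± 0.05, adjusted p = 0.447). PMS2, the endonuclease subunit, had 6.17, 6.20 and 5.79 FPKM in control, 6.80, 5.97 and 5.21 FPKM at 24 h and 5.08, 5.09 and 4.62 FPKM at 48 h (-0.25 ± 0.08, adjusted p = 0.044). PMS2 has near-identical pseudogene copies and is uncertain. Its call also ended if any control, any 48 h library or the second 24 h library was dropped (adjusted p 0.0629 to 0.131), with median-of-ratios scaling and without a variance trend. PMS1, a relative of PMS2 of lesser-known role, had 13.5, 12.3 and 13.1 FPKM in control, 12.3, 12.2 and 12.9 FPKM at 24 h and 12.1, 10.6 and 12.0 FPKM at 48 h. The 48 h libraries lay below the lowest control, and PMS1 was not called (-0.16 ± 0.06, adjusted p = 0.0729).

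**Figure D3:**
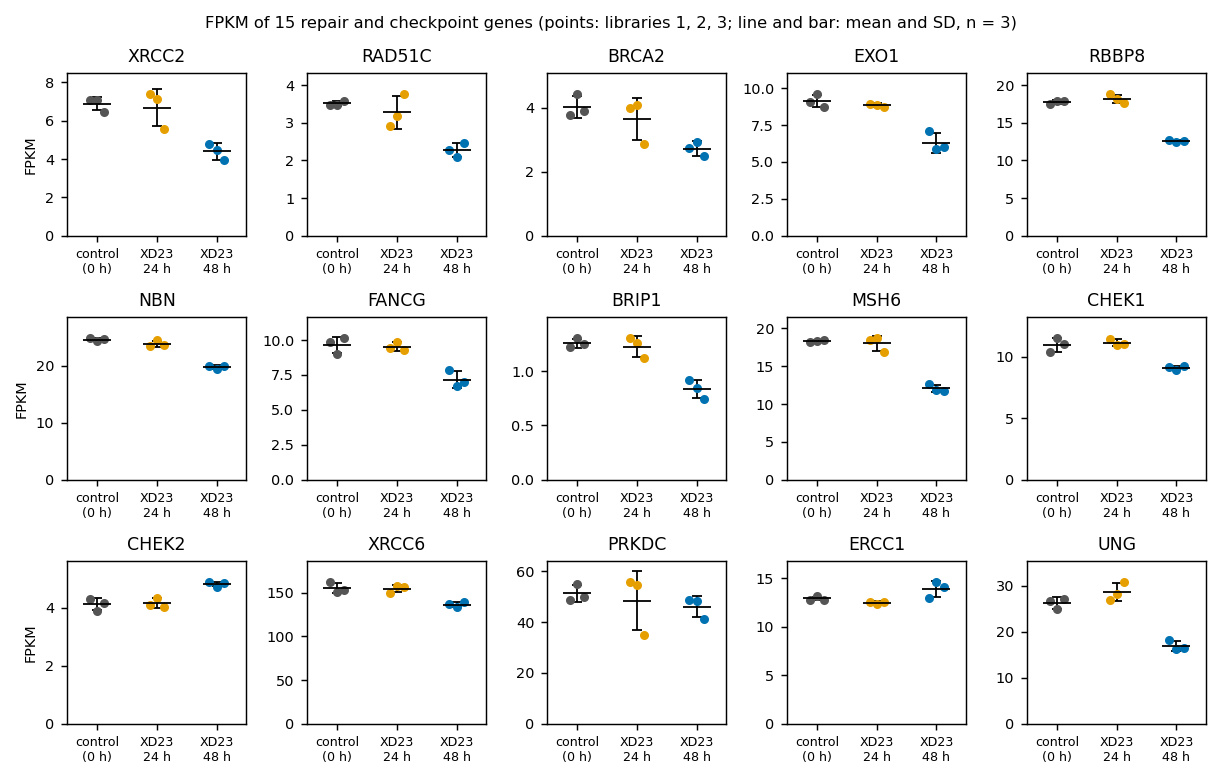
FPKM of 15 of the genes in each library at 0 h (control, grey), 24 h (orange) and 48 h (blue) with XD23, with the mean as a line and the SD as a bar (n = 3); each vertical axis starts at 0. RBBP8 and MSH6 show 48 h values well apart from the rest, CHEK2 lies higher at 48 h, and PRKDC is low in the third library at 24 h (34.95 FPKM).

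The 2 effector kinases of the checkpoint moved in opposite directions. CHEK1, which acts after ATR when forks stall, had 10.4, 11.5 and 11.01 FPKM in control, 11.5, 10.9 and 11.1 FPKM at 24 h and 9.15, 8.97 and 9.23 FPKM at 48 h. It fell by 0.24 ± 0.04 in log2 units (adjusted p = 0.00405). CHEK2, which acts after ATM at broken ends, had 4.31, 3.89 and 4.16 FPKM in control, 4.09, 4.35 and 4.01 FPKM at 24 h and 4.87, 4.72 and 4.83 FPKM at 48 h. The 48 h libraries of CHEK1 were the lowest of its 9 and those of CHEK2 the highest. CHEK2 rose by 0.18 ± 0.05 (adjusted p = 0.0219), on 343 to 494 fragments per library. The CHEK2 call was lost if control 2 or 3 or any 48 h library was dropped (adjusted p 0.0519 to 0.0761), and the gene has pseudogene copies, so it is uncertain. The upstream kinases ATM (-0.06 ± 0.09, adjusted p = 0.689) and ATR (-0.05 ± 0.09, adjusted p = 0.688) were not called, with overlapping ranges of 3.75 to 4.23 FPKM at 48 h and 4.04 to 4.27 FPKM in control for ATM. ATRIP, the partner of ATR, had 2.49, 2.80 and 2.56 FPKM in control, 3.09, 2.65 and 2.27 FPKM at 24 h and 2.46, 2.15 and 2.03 FPKM at 48 h. The 48 h libraries lay just below the controls, and ATRIP was not called (-0.17 ± 0.09, adjusted p = 0.19). TOPBP1, which activates ATR, was not called either (-0.15 ± 0.07, adjusted p = 0.128), but was lower with the third 24 h library left out of the shared fit and with the 2 groups fitted alone.

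End joining held the most abundant genes and small changes. XRCC6 (Ku70) had 162.0, 150.5 and 153.7 FPKM in control, 150.0, 157.6 and 156.9 FPKM at 24 h and 136.6, 134.0 and 139.0 FPKM at 48 h. XRCC5 (Ku80), its partner at the broken end, had 133.5, 130.2 and 134.0 FPKM in control, 130.1, 129.4 and 131.8 FPKM at 24 h and 122.0, 115.5 and 119.2 FPKM at 48 h. In both, the 48 h libraries lay below all others and control and 24 h overlapped. The log2 fold changes were alike, at -0.18 ± 0.04 for XRCC6 (adjusted p = 0.00843) and -0.16 ± 0.03 for XRCC5 (adjusted p = 0.00821). XRCC6 has processed pseudogenes, which makes its count uncertain. PRKDC, the kinase that Ku recruits, had 48.7, 55.1 and 50.03 FPKM in control, 55.6, 54.5 and 34.95 FPKM at 24 h and 48.6, 48.2 and 41.3 FPKM at 48 h. The third 24 h library was the lowest of the 9, and PRKDC was not called at 48 h (-0.15 ± 0.16, adjusted p = 0.512), nor without that library. LIG4, the ligase that seals the break, stood at 5.86 ± 0.181 FPKM at 48 h and 5.87 ± 0.0374 FPKM in control (0.00 ± 0.04), and its scaffold XRCC4 at 8.26 ± 0.304 FPKM at 48 h and 9.03 ± 0.391 FPKM in control (-0.11 ± 0.05, adjusted p = 0.132).

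Excision repair contained the gene that fell most of all 45 on log2(FPKM + 1). By the ratio of the 48 h mean to the control mean, XRCC2 (0.639) fell slightly more than this gene, UNG (0.646). UNG, the glycosylase that removes uracil from DNA, had 26.8, 24.9 and 27.2 FPKM in control, 27.0, 28.1 and 30.8 FPKM at 24 h and 18.3, 16.3 and 16.4 FPKM at 48 h. All 48 h libraries lay below the other 6, and the third 24 h library was the highest. The mean fell to 17.0 ± 1.09 FPKM at 48 h, against 26.3 ± 1.23 FPKM in control (log2 fold change -0.60 ± 0.06, adjusted p = 0.000312). UNG gives a nuclear and a mitochondrial enzyme from different starts, which values per gene cannot separate. ERCC1, a subunit of the nuclease that cuts 5′ of a lesion, had 12.8, 13.1 and 12.8 FPKM in control, 12.6, 12.3 and 12.6 FPKM at 24 h and 12.9, 14.6 and 14.1 FPKM at 48 h. It was not called (0.09 ± 0.05, adjusted p = 0.155), but was called higher with the first 48 h library left out (adjusted p = 0.0437). XPC, which finds distorted DNA, had 12.1, 12.3 and 11.9 FPKM in control, 13.0, 13.3 and 8.51 FPKM at 24 h and 11.3, 11.3 and 11.8 FPKM at 48 h. Its 48 h libraries lay just below the controls, with no call (-0.07 ± 0.13, adjusted p = 0.724). PARP1, the sensor of nicks, had 14.5, 13.9 and 14.1 FPKM at 48 h and 14.7, 14.8 and 14.9 FPKM in control (-0.06 ± 0.04, adjusted p = 0.304).

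After 24 h with XD23 none of the 45 genes was called (0 lower and 0 higher with limma, and the same with voom weights on recovered fragments), while 0.00732% of all genes tested were called lower and 0.0% higher. Log2 fold changes ran from -0.18 (PALB2) to 0.12 (UNG). An unadjusted p under 0.05 was reached by 1 repair gene (2.22%), PALB2 (-0.18 ± 0.07, adjusted p = 0.649), and by 7.43% of all genes tested. The third 24 h library stood apart: for 25 of the 45 genes (55.6%) it lay below all controls and both other 24 h libraries, as it did for 34.6% of all genes tested. Against the mean of the other 2, it was lower on the log2 scale by 0.64 in PRKDC (a difference of -0.64), with -0.57 in XPC, -0.43 in RAD54L and -0.38 in BRCA1, but 0.24 in RAD51C and 0.15 in UNG. With the 13586 tested genes that have an exon length in GENCODE split into 3 classes of about equal size by that length, its median difference was 0.09 in the shortest class, 0.02 in the middle one and -0.11 in the longest. The part of transcript length in these values was not tested. At 48 h the median log2 fold changes over control were -0.09 in the shortest class, -0.03 in the middle one and 0.02 in the longest. Of the 24 repair genes that fell, 3 were short, 8 middle and 13 long, and of the 20 not called, 3 were short, 8 middle and 9 long.

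Between 24 h and 48 h with XD23, 17 repair genes fell, 3 rose and 25 were not called, where 16.3% of all genes tested were called lower and 16.0% higher. This comparison shares its 48 h libraries with the one above. UNG fell to 17.0 ± 1.09 FPKM at 48 h (log2 difference -0.72 ± 0.06 from 24 h, adjusted p = 0.000108), MSH6 moved by -0.54 ± 0.05 and RBBP8 by -0.50 ± 0.04. The genes that rose were FANCF (0.22 ± 0.07), CHEK2 (0.17 ± 0.05) and ERCC1 (0.14 ± 0.05). FANCF, the adaptor of the Fanconi core, had 6.22, 6.30 and 6.88 FPKM at 48 h and 5.23, 4.89 and 6.13 FPKM at 24 h. Without the third 24 h library 25 repair genes were called lower and 2 higher, where 2381 (17.4%) of all 13657 genes tested were lower and 2213 higher. XPC was then called lower at 48 h than at 24 h (-0.19, adjusted p = 0.00485) where it had stood at 0.01. The 3 rises were fragile. FANCF lost its call if any library but the third at 24 h was dropped (adjusted p 0.0592 to 0.126), and ERCC1 if any but the first at 48 h was (0.0541 to 0.149). CHEK2 lost it if the first 24 h library or any 48 h library was dropped (0.0550 to 0.072).

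**Figure D4:**
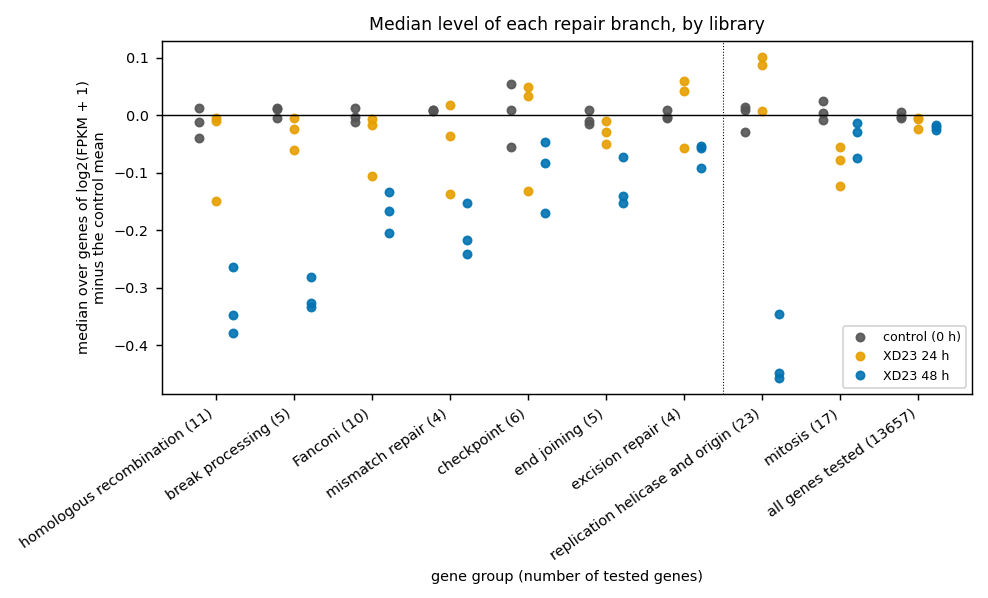
Median over the genes of each group of log2(FPKM + 1) minus the control mean, 1 point per library, at 0 h (control, grey), 24 h (orange) and 48 h (blue) with XD23; the dotted line parts the repair branches from the context groups. The 48 h points lie lowest for homologous recombination (-0.378 to -0.263) and break processing (-0.333 to -0.282) among the repair branches. Those of the replication group (-0.457 to -0.346) overlap with homologous recombination but are lower library by library, and all genes tested stay near 0.

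Other repair and damage-signalling genes, 118 in 7 lists, were set beside these. Of 115 tested, 40 fell, 2 rose and 73 were not called after 48 h, with a median log2 fold change of -0.17. Among all genes tested 15.2% were called lower. By list the median was -0.33 in mismatch repair, -0.25 in checkpoint and damage signalling, and -0.20 in recombination and in the Fanconi list. It was -0.12 in end joining and in base excision, and -0.05 in nucleotide excision. In recombination 11 of 24 fell, including FIGNL1, an ATPase of recombination (8.80 ± 0.542 FPKM at 48 h and 14.1 ± 0.577 FPKM in control; -0.62 ± 0.05), and RMI1, a partner of BLM (-0.49 ± 0.07). In checkpoint and damage signalling 10 of 16 fell, led by the phosphatase CDC25A, which CHEK1 targets (7.87 ± 0.650 FPKM at 48 h and 14.2 ± 0.896 FPKM in control; -0.78 ± 0.07), and CLSPN, the adaptor of CHEK1 (-0.73 ± 0.11). Among mismatch repair partners 7 of 10 fell, with the clamp loader genes RFC2 (-0.44 ± 0.09) and RFC5 (-0.43 ± 0.05) lowest; the clamp loader also serves replication. Base excision had 6 of 21 lower and 1 higher, with FEN1, the flap nuclease, at 17.3 ± 1.32 FPKM at 48 h and 27.7 ± 0.536 FPKM in control (-0.65 ± 0.05), and APEX2 at -0.30 ± 0.06. Further Fanconi genes had 3 of 12 lower and 1 higher, FAAP100 (-0.32 ± 0.07) and RFWD3 (-0.30 ± 0.08) among them. Nucleotide excision had 3 of 20 lower, no more than the share among all genes tested (15.2%), with the TFIIH subunits GTF2H3 (-0.53 ± 0.05) and CCNH (-0.32 ± 0.06). In end joining 0 of 12 were called with limma, 3 had an unadjusted p under 0.05 and 1 was lower with voom.

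Genes of DNA replication were also lower at 48 h. Of 23 genes of origin licensing, the replicative helicase and S-phase entry, 22 fell and 0 rose, with a median of -0.42, led by the cyclins CCNE2 (2.21 ± 0.333 FPKM at 48 h and 4.97 ± 0.232 FPKM in control; -0.90 ± 0.10) and CCNE1 (-0.76 ± 0.06). At 24 h the same 23 genes had a median of 0.07 and none was called, with 6 at an unadjusted p under 0.05 (7.43% of all genes tested). Of 17 mitotic genes 2 fell and 2 rose at 48 h, with a median of -0.06. These counts are near the shares among all genes tested, of which 15.2% were called lower and 13.3% higher. KIF11 moved by -0.20 ± 0.04 and UBE2C by 0.22 ± 0.06 at 48 h. At 24 h the 17 mitotic genes had a median of -0.10, from -0.25 to -0.01. None was called, with 4 at an unadjusted p under 0.05. An E2F word stood in 13 of 19 replication promoters (68.4%), in 1 of 14 mitotic promoters (7.14%) and in 6 of 106 promoters of the other repair genes (5.66%). In bulk RNA, fewer cells in S phase and less transcript per cell cannot be told apart. Of the 4 tested markers of the line, SPARC (-0.56 ± 0.04) and RUNX2 (-0.50 ± 0.05) also fell at 48 h, while FN1 (0.25 ± 0.12) and VIM (0.23 ± 0.09) were not called. VIM was called higher with voom. The 8 markers of the line summed to 392.8 to 419.4 FPKM at 48 h and 358.2 to 368.7 FPKM in control, most of it VIM. Markers of other cell types summed to 3.43 to 3.69 FPKM at 48 h and 4.10 to 4.88 FPKM in control, most of it EPCAM, which was at 2.75 ± 0.242 FPKM at 48 h and 3.88 ± 0.386 FPKM in control; their part in the results was not tested.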

How the data were processed

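Polyadenylated RNA of 143B cells was sequenced as paired-end libraries after Trizol extraction, per the labels' protocols. The FPKM of 36810 genes in 9 libraries were deposited by the authors with replicates kept apart. The submitters' processing notes list HISAT2, featureCounts, Subread and DESeq2, with hg38 as the build. Versions, settings and annotation: not given in the sources used here. Symbols were matched for 36724 genes, and positions and exon lengths were taken from GENCODE release 29 (GRCh38). Fragments were recovered as whole numbers (within 0.001) from FPKM, length and a total for each library for 13657 of the 13658 genes tested or described, 5095 with the GENCODE length and the others with the smallest length that fitted all 9 values. Library totals were 18341542 to 22901830 fragments.

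Genes with at least 1 FPKM in at least 3 libraries were fitted on log2(FPKM + 1), which understates changes of low genes, with limma 3.58.1 in R 4.3.3 (1 mean per group, 9 libraries, 6 residual degrees of freedom, eBayes with trend, two-sided). The procedure was tried on simulated data with independent noise in each gene and no outlying library. That trial does not cover shifts shared by many genes, as in the third 24 h library. The genes, branches and lists were chosen with earlier results of these data known. Values in every library are given for the 3 tested genes of each branch with the largest absolute change at 48 h, and up to 2 called genes per further list are named. Other genes given with values, such as MSH3, RAD54L, PARP1, RAD50 and FANCF, were singled out after their values were seen. Alternatives were median-of-ratios scaling, other filters (none, or 5 FPKM), other pseudocounts (0.1 or 0.5), no trend, 2 groups per fit, a replicate block, leaving out each library, a minimum change of 0.5 and, added after seeing the data, voom weights on recovered fragments.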

Additional observations from a re-analysis of the deposited data

Results flagged for a closer look

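For 20 of the 45 repair genes the change at 48 h differed from that at 24 h by the test of the difference itself, the contrast of 48 h with 24 h in the limma fit, at an adjusted p under 0.05. Of these, 17 were lower and 3 higher, where 16.3% of all genes tested were called lower and 16.0% higher. The controls cancel in this difference. In log2 units, 48 h minus 24 h, it was -0.72 in UNG, -0.54 in MSH6, -0.50 in XRCC2 and -0.50 in RBBP8, followed by -0.43 in EXO1, -0.38 in RAD51C and -0.37 in FANCG. BRCA1 and RAD51AP1 each had -0.31, BARD1 -0.29, BRIP1 -0.28, CHEK1 -0.26 and NBN -0.26. FANCE had -0.23, FANCA -0.22, XRCC6 -0.18 and XRCC5 -0.13. The positive differences were 0.22 in FANCF, 0.17 in CHEK2 and 0.14 in ERCC1. The third 24 h library stood low for 25 of the 45 genes and for 34.6% of all genes tested. With it left out, 25 repair genes were called lower and 2 higher. Of all 13657 genes tested, 2381 (17.4%) were then lower and 2213 higher. Beside FANCF, CHEK2 and ERCC1, the calls of BRCA1 (adjusted p 0.0552 to 0.122) and FANCA (0.0533 to 0.113) were lost if any library but the third at 24 h was dropped. BRIP1 lost its call if the first or the second 24 h library or the second or the third 48 h library was dropped (0.0661 to 0.0768), and BARD1 (0.0525) and XRCC5 (0.0580) if the second 48 h library was. Groups of 3 libraries were too small for a check of single outlying values.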

How the results depend on the processing

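Of the 25 genes called at 48 h against control, 15 kept their call in all of up to 18 alternatives that could test them, not counting the minimum change of 0.5, and 10 lost it in at least 1; none changed direction. Apart from that minimum change, the number called lower was 17 to 25 under the other settings and voom, and 16 to 26 with 1 library left out. The share of all genes tested that was called lower moved as well. It ran from 4.12% (no filter) to 21.9% (filter at 5 FPKM) under those settings, and from 10.0% to 20.3% with 1 library left out. Same-numbered libraries share only a number: their deviations from the group means correlated at -0.0571 to 0.239, against -0.192 to 0.128 for differently numbered ones. With the replicate number as a block the count was 23 lower and 1 higher at 48 h, 0 and 0 at 24 h, and 19 lower and 2 higher between 24 h and 48 h. Over all genes tested it called 14.7% lower at 48 h and 16.1% between 24 h and 48 h. The block ended the calls of MRE11 (adjusted p = 0.0519) and RAD51D (0.0597) at 48 h and of ERCC1 between 24 h and 48 h. It gave calls to PMS1 at 48 h and to BRCA2 and PMS2 between 24 h and 48 h. Asking for a change of at least 0.5 on log2(FPKM + 1) left 3 genes lower and 0 higher at 48 h. It left 3 lower and 0 higher between 24 h and 48 h, and 5 of the other repair genes lower at 48 h. The minimum change was not applied at the smaller pseudocounts, where single genes moved further. CHEK2 was not tested with the filter at 5 FPKM, which left 0 genes higher at 48 h. Without 1 library 0 to 1 were higher, and without 48 h replicate 1 the gene called higher was ERCC1 (adjusted p = 0.0437), not CHEK2. Between 24 h and 48 h the 3 rises became 0 without a filter, 1 with 2 groups per fit and 0 to 2 without 1 library. Without 1 library 12 to 25 repair genes were lower, and 10.9% to 17.4% of all genes tested. The other repair genes called lower at 48 h numbered 27 to 48 with 1 library left out, where 10.0% to 20.3% of all genes tested were lower. Branch medians at 48 h moved by more than the spread between libraries in the following cases. At a pseudocount of 0.1 Fanconi stood at -0.218 and all repair genes at -0.235. With the filter at 5 FPKM, on fewer genes, break processing stood at -0.384, Fanconi at -0.126 and the checkpoint group at -0.197. With median-of-ratios scaling break processing stood at -0.266 and excision repair at -0.035. Homologous recombination stood at -0.376 without 48 h replicate 1. End joining stood at -0.102 without control replicate 2 and at -0.1 without 48 h replicate 3. Over all libraries left out in turn, these 2 branches ran from -0.376 to -0.28 and from -0.175 to -0.1, and their other values stayed within the spread. XPC at 48 h minus 24 h was -0.186 without 24 h replicate 3, against 0.005 with it, and -0.186 to 0.11 over all libraries left out in turn; the cause was not tested. Signs of changes called in neither setting were not compared. Depth limits RAD50 (46 to 127 fragments), RAD54B (128 to 188), ATRIP (224 to 348) and RAD51D (228 to 352) most.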
